A study of Mus musculus with 17 samples.

Results

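A group of 35 macrophage and monocyte genes was followed in 12 mammary tumours of the mouse and in normal mammary tissue. They were chosen by symbol, as markers, receptors, chemokines and effector genes of these phagocytes, and were Csf1, Csf1r, Ccl2, Ccl3, Ccl4, Ccl7, Ccr2, Cx3cr1, Adgre1, Cd68, Cd14, Itgam, Itgax, Ptprc, Fcgr1, Fcgr3, Fcer1g, Tyrobp, Trem2, C1qa, C1qb, C1qc, Lyz2, Ctss, Cybb, Laptm5, Mpeg1, Ms4a7, Ms4a6d, Aif1, Gpnmb, Apoe, Lyve1, Timd4 and Marco. The choice was made with earlier results of these data known, so counts set beside those of all genes are descriptive. All 35 were found among 19938 measured genes, each on 1 probe set that names no other gene. RNA of each sample was read on an Affymetrix Mouse Gene 1.0 ST array, and levels are log2 values, on which a difference of 1 is a 2-fold change.

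Strain background was mixed throughout. The 9 Rb/p53 tumours lacked Rb and p53, encoded by Rb1 and Trp53. In 7 of them Cre recombinase came from MMTV-Cre, a transgene under a mouse mammary tumour virus promoter that is active mainly in mammary epithelium. MMTV-Cre replicate 1 arose in a nulliparous mouse, replicate 2 in a parous mouse, and replicates 3 to 7 are labelled as transplants. In the other 2 tumours, both transplants, Cre came from an adenovirus (Ad-CMVcre). The 3 p53 tumours carried MMTV-Cre and lacked p53, with no deletion of Rb named. In 1 of them, replicate 3, the title says Rb/p53, whereas its source, description and tissue name p53, so it counts here as p53. Normal tissue (n = 5) was taken from Rb/p53-model mice. Ages and the hosts of the transplants are not stated in the labels. The labels call the tumours independent. They do not clearly say whether each normal sample is a separate animal, so p-values reflect only the spread among the samples at hand.

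Macrophages are resident in the mammary gland, where they sit along ducts and in the fat pad and clear dying cells. Their survival depends on the receptor CSF1R and its ligands CSF1 and IL34. Monocytes leave the blood under chemokines such as CCL2 and CCL7, which act through CCR2, and mature into macrophages in the tissue. Mature cells bind antibody through Fc receptors that signal through the FCER1G adaptor, secrete the complement chains of C1q, and digest what they take up with lysosomal enzymes. Resident macrophages of many tissues carry scavenger and clearance receptors, among them LYVE1 and TIMD4.

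Rb1 read 9.29 to 9.92 in the Rb/p53 tumours, 9.93, 10.999 and 10.27 in p53 replicates 1, 2 and 3, and 10.93 to 11.50 in normal tissue. Every Rb/p53 tumour lay below every normal sample. Trp53 was not analysed here. Among the arrays, p53 replicate 2 stood apart. Its correlation with the others ran from 0.888 to 0.915, whereas no other pair fell below 0.929, and its interquartile range was 2.39 against 2.91 to 3.18. Values without it are therefore given beside the differences of p53 tumours from normal tissue. No member read below 6.37, the lowest 25th percentile of any array, on any array. The markers of the neighbouring tissue differed as well. The 9 adipocyte genes averaged 12.41 to 12.92 in normal tissue and 7.38 to 8.53 in the tumours. The 8 epithelial genes averaged 11.33 to 11.47 in normal tissue, 8.23 to 10.12 in Rb/p53 tumours and 8.41 to 9.55 in p53 tumours. Whether a change in these other cells altered the share of macrophage RNA was not tested.

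Many of the 35 genes were higher in the tumours than in normal tissue, led by the chemokines Ccl2, Ccl3 and Ccl7 and by Ms4a6d. The receptors Lyve1 and Timd4 were lower in Rb/p53 tumours. In Rb/p53 tumours against normal tissue, 16 of the 35 genes rose, 2 fell and 17 did not pass an adjusted p of 0.05 (limma, Benjamini-Hochberg over 19938 genes). Among the 17 were Csf1r, Adgre1, Ptprc, Lyz2 and Cybb, and among the 16 were Cd68, Itgam and Fcgr1. Over all genes 14.2% rose and 13.4% fell in that comparison, 27.6% in all. The median difference of the 35 genes was 0.69, against 0.03 for all genes. Of the 35, 9 lay higher in every Rb/p53 tumour than in every normal sample and 1 lay lower, against 7.9% and 8.31% of all genes. In p53 tumours against the same 5 normal samples, 21 genes rose, 1 fell and 13 did not pass, where 8.34% of all genes rose and 12.1% fell, 20.4% in all. The median difference was 1.21, against 0.09 for all genes. Here 18 genes lay higher in all 3 tumours than in every normal sample and 1 lay lower, against 9.87% and 13.5% of all genes. Without p53 replicate 2 the counts were 17 higher and 1 lower, the latter being Timd4 in place of Gpnmb, with a median difference of 0.98. The shares and medians of all genes given above are those of the fit with all arrays. Without MMTV-Cre replicate 4, Adgre1, Tyrobp, Laptm5 and Aif1 also passed in Rb/p53 tumours, and without replicate 2 all of these but Laptm5 did. With only the 2 Rb/p53 tumours that are not labelled as transplants, 7 rose and 1 fell, the latter being Gpnmb in place of Lyve1 and Timd4, while 10.1% of all genes passed in either direction. In bulk tissue, more or fewer cells of a type and more or less RNA per cell cannot be told apart.

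**Figure D1:**
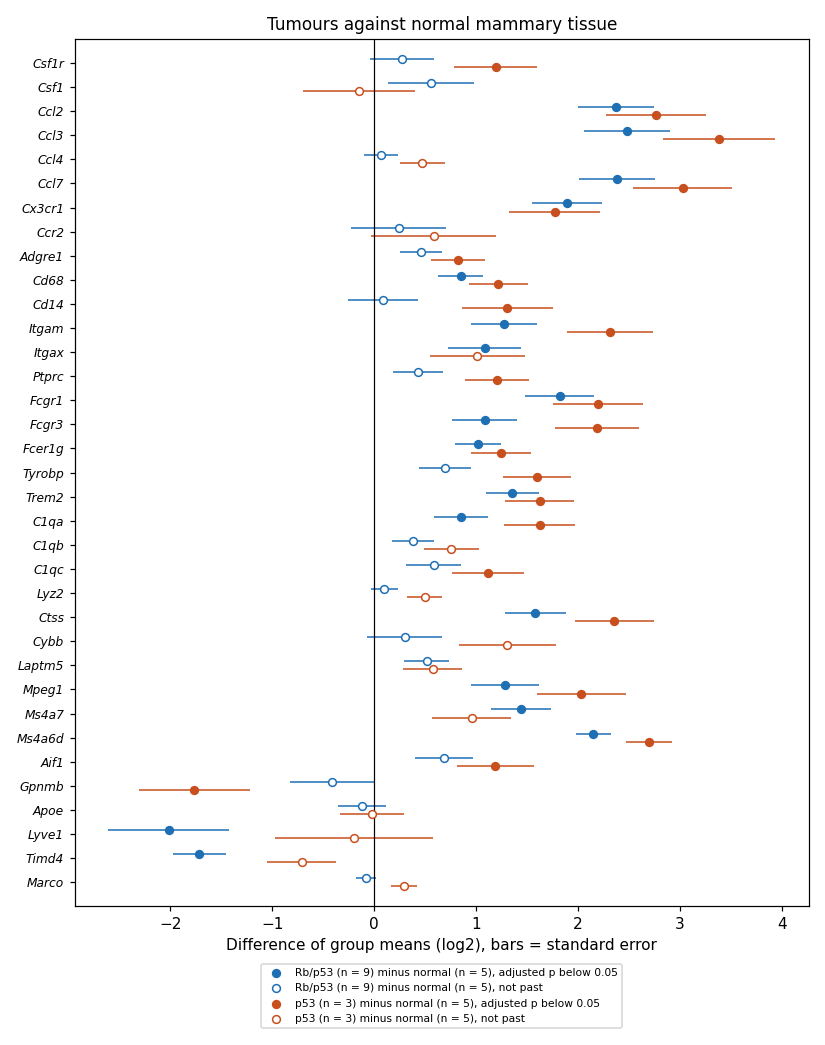
Difference of group means between tumours and normal tissue for each of the 35 genes (x axis, log2; y axis, gene in order of role), for Rb/p53 tumours (blue, n = 9) and p53 tumours (orange, n = 3) against the same 5 normal samples. Bars are standard errors, filled points passed an adjusted p of 0.05 and open points did not; Ccl2, Ccl3, Ccl7 and Ms4a6d lie farthest to the right in both, at 2.15 to 3.39, and Lyve1 and Timd4 lie to the left in the Rb/p53 tumours.

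The start sites of these genes were examined for the letters GAGGAA, in either orientation (TTCCTC on the other strand), the core bound by the myeloid ETS factor PU.1 (encoded by Spi1) and by other ETS factors. RefSeq promoter entries (GRCm38.p6, 250 bases before to 50 after the start) matched 25 of the 35 genes. Ccl2, Ccl7 and Ms4a6d were among those without an entry. Of the 25, 16 held the motif (64%), against 28.3% of 32851 promoters in the table and 31.3% of 27025 genes. An NF-κB-like motif, GGG followed by any 2 bases and TTTCC, searched on both strands, was in 3 of the 25 (Csf1, Fcgr3 and Marco; 12%), against 1.63% of promoters and 1.89% of genes. The 150 bases before the start are printed for 5 genes that rose in both tumour genotypes and hold GAGGAA in that window. Cx3cr1 is printed as an example of a gene that rose and has no match there. Cd68, Fcer1g, Ctss and Mpeg1 also rose in both, have no match in that window and are not printed. No printed match overlaps a match of the other motif. The printed windows run 5′ to 3′ on the gene's strand, with the motif in capitals. A match describes the letters and shows no binding.
Itgam: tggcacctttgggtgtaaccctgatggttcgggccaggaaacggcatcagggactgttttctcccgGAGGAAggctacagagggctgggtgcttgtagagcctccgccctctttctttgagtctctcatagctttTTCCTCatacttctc
Fcgr1: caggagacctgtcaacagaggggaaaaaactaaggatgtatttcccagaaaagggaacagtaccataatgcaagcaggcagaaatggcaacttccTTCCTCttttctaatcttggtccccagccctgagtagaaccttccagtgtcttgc
Fcgr3: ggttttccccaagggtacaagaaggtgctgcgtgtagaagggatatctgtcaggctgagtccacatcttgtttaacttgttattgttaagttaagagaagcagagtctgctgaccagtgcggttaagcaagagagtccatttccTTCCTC
Trem2: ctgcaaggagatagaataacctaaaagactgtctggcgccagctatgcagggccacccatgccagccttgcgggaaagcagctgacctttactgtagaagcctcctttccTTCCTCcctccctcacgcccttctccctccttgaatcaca
Ccl3: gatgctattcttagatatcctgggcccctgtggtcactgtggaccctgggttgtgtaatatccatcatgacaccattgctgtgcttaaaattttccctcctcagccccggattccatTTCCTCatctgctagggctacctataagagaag
Cx3cr1: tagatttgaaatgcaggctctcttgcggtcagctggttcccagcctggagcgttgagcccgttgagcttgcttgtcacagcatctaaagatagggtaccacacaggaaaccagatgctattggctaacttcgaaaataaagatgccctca
The Itgam window is chr7:128062490-128062639 on the plus strand, with matches whose first bases lie at -84 and -15 from the start. The Fcgr1 window is chr3:96293970-96294119 on the minus strand, with its match at -55. The Fcgr3 window, chr1:171059404-171059553 on the minus strand, has it at -6. The Trem2 window, chr17:48346251-48346400 on the plus strand, has it at -40, and the Ccl3 window, chr11:83649379-83649528 on the minus strand, at -33. The Cx3cr1 window is chr9:120068297-120068446 on the minus strand.

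The growth factor Csf1 and its receptor Csf1r, the axis that keeps macrophages alive, did not pass in Rb/p53 tumours. Csf1 read 10.18, 10.24, 10.02, 10.51 and 10.69 in the normal samples and had a lowest, median and highest of 10.40, 10.85 and 11.75 in the 9 Rb/p53 tumours. In the p53 tumours it read 10.73, 8.01 and 11.81 for replicates 1, 2 and 3. Rb/p53 tumours overlapped with normal tissue, and p53 replicate 2 lay far below every other sample. Csf1 did not pass in either comparison, at 0.56 ± 0.42 (SE; adjusted p = 0.385) in Rb/p53 and -0.15 ± 0.55 (adjusted p = 0.868) in p53 tumours. Without p53 replicate 2 the latter was 0.94 (adjusted p = 0.0541).

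Csf1r, which marks the whole macrophage lineage, read 11.71, 11.11, 11.44, 10.99 and 10.97 in normal tissue and 10.60, 11.71 and 12.36 (lowest, median, highest) in Rb/p53 tumours. It read 11.47, 13.44 and 12.40 in p53 replicates 1 to 3. Both tumour groups overlapped with normal tissue. The difference was 0.28 ± 0.31 (adjusted p = 0.596; 95% interval -0.38 to 0.93) in Rb/p53 tumours. In p53 tumours it was 1.19 ± 0.41 and passed narrowly (adjusted p = 0.0484). That call was lost in 12 of the 17 fits that left out 1 array, and without p53 replicate 2 the difference was 0.69 (adjusted p = 0.269).

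The monocyte-attracting chemokines gave the largest differences among the 35 genes. Ccl2 read 8.55, 9.27, 8.74, 8.69 and 8.68 in normal tissue, and 9.62, 11.25 and 12.49 (lowest, median, highest) in Rb/p53 tumours. It read 11.69, 11.18 and 11.79 in p53 replicates 1 to 3. Every tumour lay above every normal sample. Ccl2 rose by 2.37 ± 0.37 (adjusted p = 0.000144) in Rb/p53 tumours and by 2.77 ± 0.49 (adjusted p = 0.000652) in p53 tumours, or 2.95 without p53 replicate 2.

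Ccl7, a second ligand of CCR2, read 8.31, 8.82, 8.49, 8.39 and 8.44 in normal tissue and 9.63, 10.90 and 11.96 (lowest, median, highest) in Rb/p53 tumours. The p53 tumours lay close together at 11.43, 11.50 and 11.62. No tumour overlapped with normal tissue, and the Rb/p53 tumours spread over a wider range than the p53 tumours. Ccl7 rose by 2.38 ± 0.37 (adjusted p = 0.000139) and by 3.03 ± 0.49 (adjusted p = 0.0003), or 3.04 without p53 replicate 2.

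Ccl3, a chemokine that draws monocytes and other leukocytes, read 8.13, 7.40, 7.72, 7.75 and 7.34 in normal tissue. Its lowest, median and highest levels in Rb/p53 tumours were 9.33, 10.27 and 11.47. It read 10.33, 12.84 and 9.998 in p53 replicates 1 to 3. All tumours lay above all normal samples, with p53 replicate 2 highest. The rises were 2.48 ± 0.42 (adjusted p = 0.000288) in Rb/p53 and 3.39 ± 0.55 (adjusted p = 0.000314) in p53 tumours, or 2.49 without p53 replicate 2. Its relative Ccl4 did not pass, at 0.07 (adjusted p = 0.836) and 0.47 (adjusted p = 0.135). The p53 value was 0.02 (adjusted p = 0.938) without p53 replicate 2 and 0.72 (adjusted p = 0.0276) without replicate 3. Ccl4 lay between 7.002 and 7.43 in all samples but p53 replicate 2, which read 8.52.

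Of the chemokine receptors, Cx3cr1 rose and Ccr2 did not pass. Cx3cr1, the fractalkine receptor of patrolling monocytes and many tissue macrophages, read 8.93, 8.77, 9.04, 8.99 and 8.58 in normal tissue and 9.43, 10.81 and 11.77 (lowest, median, highest) in Rb/p53 tumours. In p53 replicates 1 to 3 it read 10.86, 9.47 and 11.57. No tumour overlapped with normal tissue. Cx3cr1 rose by 1.89 ± 0.34 (adjusted p = 0.000509) and by 1.77 ± 0.45 (adjusted p = 0.0095), or 2.35 without p53 replicate 2. With p53 replicate 3 counted as an Rb/p53 tumour, the p53 value was 1.31 (adjusted p = 0.0523). Ccr2, the receptor of CCL2 and CCL7, did not pass in either comparison. It differed by 0.24 ± 0.47 (adjusted p = 0.78) in Rb/p53 tumours, which spanned 7.21 to 10.79 around the normal samples at 8.88 to 9.79. In p53 tumours the difference was 0.59 ± 0.61 (adjusted p = 0.511), with 1.2 (adjusted p = 0.225) without p53 replicate 2 and -0.09 (adjusted p = 0.925) without replicate 3.

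**Figure D2:**
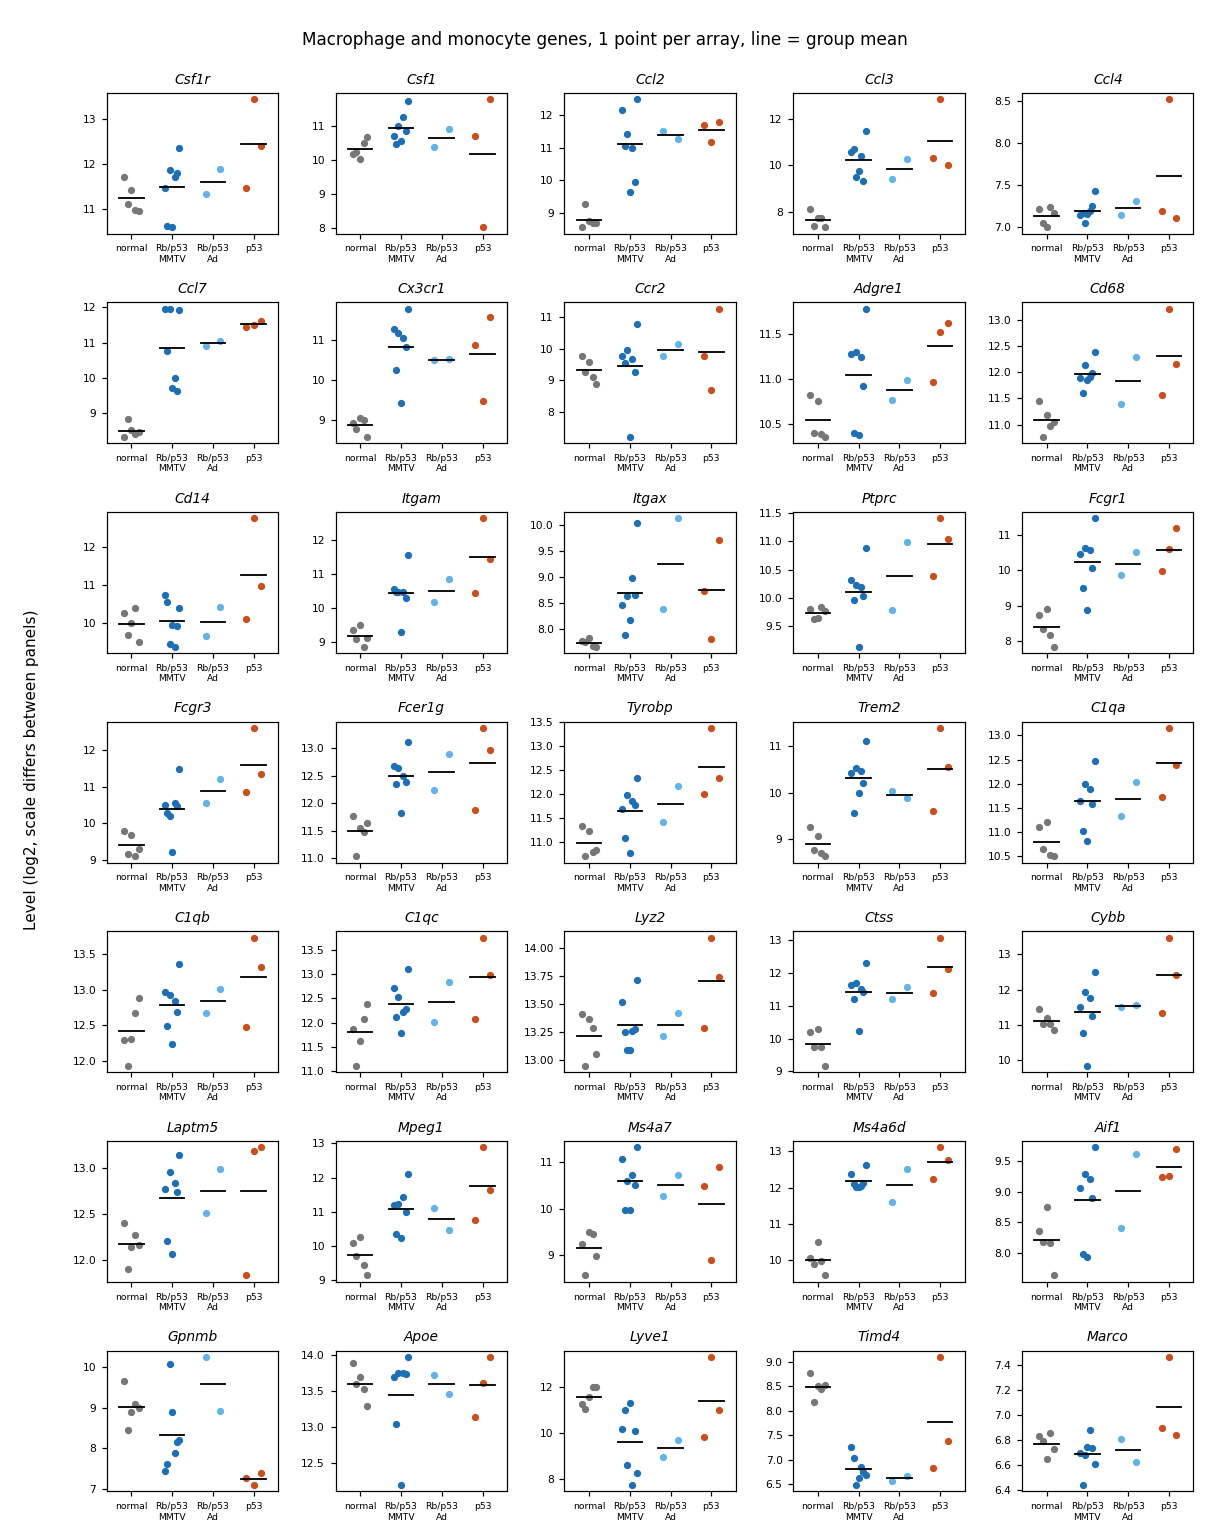
Level of each of the 35 genes (y axis, log2, with its own scale in each panel) in every sample, by group (x axis); each point is 1 array and each line a group mean. Ccl2, Ccl3, Ccl7, Cx3cr1, Trem2 and Ms4a6d are higher in all 12 tumours than in all 5 normal samples, and Timd4 is lower in all 9 Rb/p53 tumours.

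Ligand and receptor levels were compared tumour by tumour among the 9 Rb/p53 tumours for 3 pairs, with exact permutation of pairings (two-sided) and Benjamini-Hochberg adjustment over the 3. Csf1 was higher in tumours with higher Csf1r, with a Pearson r of 0.81 (p = 0.00867, adjusted 0.00913; exact permutation) and a Spearman rho of 0.82 (p = 0.0108, exact permutation). Leaving out the 2 tumours farthest from the median of Csf1 gave r = 0.82. Ccl2 and Ccr2 gave r = 0.83 (p = 0.000967, adjusted 0.0029; exact permutation) and rho = 0.83 (p = 0.00827, exact permutation), with r = 0.69 without the 2 farthest. For Ccl7 and Ccr2, r was 0.68 (p = 0.00913, adjusted 0.00913; exact permutation) and rho 0.83 (p = 0.00827, exact permutation), with r = 0.54 without the 2 farthest. Within the 7 MMTV-Cre tumours the 3 values of r were 0.87, 0.84 and 0.68. Without MMTV-Cre replicate 7 the adjusted exact permutation p rose to 0.0625 for Csf1 with Csf1r (r = 0.73) and to 0.0699 for Ccl7 with Ccr2 (r = 0.60). For Ccl2 with Ccr2 it was then 0.0199 (r = 0.78). Leaving out the 2 farthest as well, MMTV-Cre replicates 4 and 6, gave r = 0.15 for Ccl2 with Ccr2 in 6 tumours. Over all 12 tumours Csf1 with Csf1r turned to r = -0.32 (adjusted permutation p = 0.287), and p53 replicate 2 had both the lowest Csf1 and the highest Csf1r. The rho over the 12 tumours was 0.46, and r was 0.81 without the 2 farthest, p53 replicates 2 and 3. Both genes of a pair were read on the same arrays. Of the 9 Rb/p53 tumours, MMTV-Cre replicate 7 was highest in 27 of the 35 genes and replicate 4 lowest in 21.

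**Figure D3:**
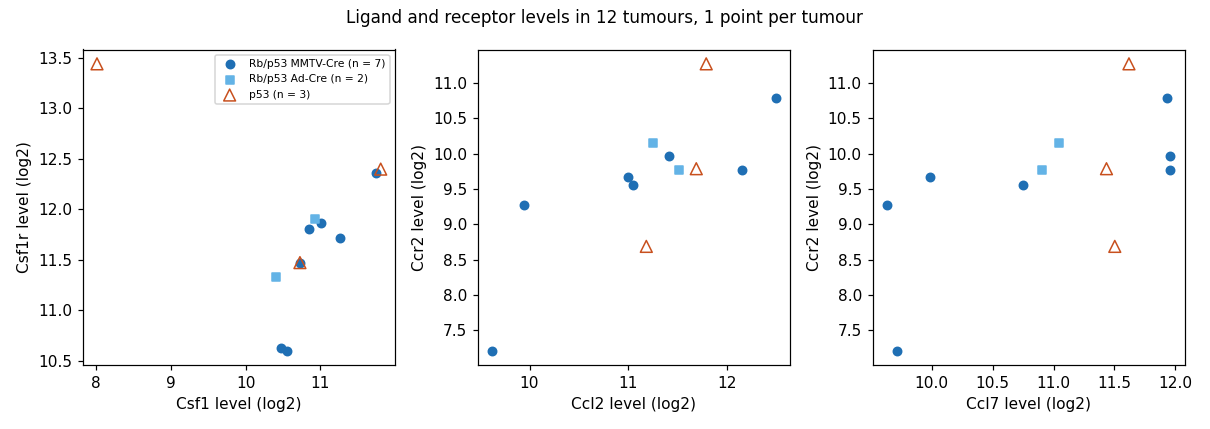
Ligand level (x axis, log2) against receptor level (y axis, log2) in 12 tumours for Csf1 with Csf1r, Ccl2 with Ccr2 and Ccl7 with Ccr2; circles are Rb/p53 MMTV-Cre tumours (n = 7), squares Rb/p53 Ad-Cre tumours (n = 2) and open triangles p53 tumours (n = 3). In the first panel p53 replicate 2 stands alone at a Csf1 level of 8.01 and a Csf1r level of 13.44, and in the other panels MMTV-Cre replicate 4 is lowest in Ccr2 at 7.21.

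Of 6 surface and integrin markers, 3 rose in Rb/p53 tumours and 5 in p53 tumours. Adgre1, the classical surface marker of mature mouse macrophages, read 10.83, 10.40, 10.76, 10.40 and 10.36 in normal tissue, and 10.38, 10.99 and 11.78 (lowest, median, highest) in Rb/p53 tumours. It read 10.97, 11.53 and 11.62 in p53 replicates 1 to 3. Rb/p53 tumours overlapped with normal tissue in 3 of 9 cases and p53 tumours in none. Adgre1 did not pass in Rb/p53 tumours (0.46 ± 0.20, adjusted p = 0.105) and rose by 0.82 ± 0.26 (adjusted p = 0.0367) in p53 tumours. The second call was lost without normal replicate 2, 4 or 5 or p53 replicate 2 or 3, with 0.75 (adjusted p = 0.103) without p53 replicate 2.

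Cd68, a lysosomal membrane protein of phagocytes, read 11.46, 10.77, 11.18, 10.98 and 11.05 in normal tissue and 11.38, 11.90 and 12.39 (lowest, median, highest) in Rb/p53 tumours. It read 11.56, 13.20 and 12.16 in p53 replicates 1 to 3. Ad-Cre replicate 1 was the only tumour within the normal range. Cd68 rose by 0.85 ± 0.22 (adjusted p = 0.00761) and by 1.22 ± 0.29 (adjusted p = 0.00592), or 0.77 without p53 replicate 2.

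Itgam, the αM integrin chain of monocytes, macrophages and neutrophils, read 9.36, 9.08, 9.496, 8.87 and 9.14 in normal tissue and 9.31, 10.46 and 11.57 (lowest, median, highest) in Rb/p53 tumours. It read 10.45, 12.63 and 11.44 in p53 replicates 1 to 3. MMTV-Cre replicate 4 alone overlapped with normal tissue. Itgam rose by 1.27 ± 0.32 (adjusted p = 0.00689) and by 2.32 ± 0.42 (adjusted p = 0.000858), or 1.75 without p53 replicate 2. Some neutrophil genes rose as well. The 13 genes of the neutrophil list averaged 6.96 to 7.28 in normal tissue and 7.16 to 8.88 in Rb/p53 tumours. They averaged 7.66, 9.79 and 7.64 in p53 replicates 1 to 3. In Rb/p53 tumours 6 of 13 rose and 1 (Ltf) fell. In p53 tumours 4 of 13 rose, or 2 without p53 replicate 2, and none fell. With all arrays in the fit, 14.2% of all genes rose in Rb/p53 and 8.34% in p53 tumours. S100a8, abundant in neutrophils, read 6.18 to 6.47 in normal tissue and 6.72 to 10.56 in Rb/p53 tumours. It read 7.51, 11.13 and 6.84 in p53 replicates 1 to 3. The part of neutrophil genes in the rise of Itgam, and of Fcer1g, Fcgr3 and Tyrobp, which neutrophils also express, was not tested.

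Itgax, the αX integrin chain of dendritic cells and some macrophages, read 7.77, 7.75, 7.83, 7.68 and 7.66 in normal tissue and 7.89, 8.64 and 10.13 (lowest, median, highest) in Rb/p53 tumours. It read 8.73, 7.81 and 9.72 in p53 replicates 1 to 3. No Rb/p53 tumour overlapped with normal tissue, whereas p53 replicate 2 did. Itgax rose by 1.08 ± 0.36 (adjusted p = 0.0315) in Rb/p53 tumours, a call lost when any 1 of the 5 normal samples was left out (adjusted p up to 0.0653). It did not pass in p53 tumours (1.01 ± 0.47, adjusted p = 0.132), and did without p53 replicate 2 (1.49, adjusted p = 0.0438). None of the 9 dendritic cell genes rose in either comparison, where 14.2% (Rb/p53) and 8.34% (p53) of all genes rose. In Rb/p53 tumours 6 of them fell and in p53 tumours 1, where 13.4% and 12.1% of all genes fell. The part of dendritic cells in the rise of Itgax was not tested.

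Ptprc, the pan-leukocyte phosphatase, read 9.81, 9.63, 9.65, 9.84 and 9.77 in normal tissue and 9.14, 10.19 and 10.99 (lowest, median, highest) in Rb/p53 tumours. It read 10.38, 11.40 and 11.05 in p53 replicates 1 to 3. All p53 tumours lay above normal tissue, while MMTV-Cre replicate 4 lay below it. Ptprc did not pass in Rb/p53 tumours (0.43 ± 0.24, adjusted p = 0.216) and rose by 1.21 ± 0.32 (adjusted p = 0.0126) in p53 tumours, or 0.98 without p53 replicate 2 (adjusted p = 0.0627).

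Cd14, the lipopolysaccharide co-receptor of monocytes, read 10.26, 9.69, 10.01, 10.41 and 9.49 in normal tissue and 9.38, 9.95 and 10.73 (lowest, median, highest) in Rb/p53 tumours. It read 10.10, 12.76 and 10.97 in p53 replicates 1 to 3. Rb/p53 tumours lay above, within and below the normal range, and p53 replicate 2 was highest of all. The difference was 0.08 ± 0.34 (adjusted p = 0.906) in Rb/p53 tumours. In p53 tumours it was 1.31 ± 0.45 (adjusted p = 0.0486), a call lost in 16 of 17 fits without 1 array, with 0.57 (adjusted p = 0.322) without p53 replicate 2.

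Of 5 Fc receptors and adaptors, 4 rose in Rb/p53 tumours and 5 in p53 tumours. Fcgr1, the high-affinity IgG receptor and a marker of macrophages over dendritic cells, read 8.73, 8.33, 8.91, 8.18 and 7.84 in normal tissue. Its lowest, median and highest levels in Rb/p53 tumours were 8.87, 10.47 and 11.48. It read 9.98, 10.60 and 11.20 in p53 replicates 1 to 3. Only MMTV-Cre replicate 4 reached into the normal range. Fcgr1 rose by 1.82 ± 0.34 (adjusted p = 0.000641) and by 2.20 ± 0.44 (adjusted p = 0.00192), or 2.19 without p53 replicate 2.

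Fcgr3, a low-affinity activating IgG receptor, read 9.79, 9.18, 9.69, 9.11 and 9.30 in normal tissue, 9.22, 10.49 and 11.49 (lowest, median, highest) in Rb/p53 tumours and 10.84, 12.59 and 11.36 in p53 replicates 1 to 3. It overlapped with normal tissue in MMTV-Cre replicate 4 only. Fcgr3 rose by 1.08 ± 0.32 (adjusted p = 0.0164) and by 2.19 ± 0.41 (adjusted p = 0.0012), or 1.69 without p53 replicate 2. Fcer1g, the signalling chain shared by Fc receptors, read 11.77, 11.04, 11.55, 11.48 and 11.64 in normal tissue, 11.82, 12.50 and 13.12 (lowest, median, highest) in Rb/p53 tumours and 11.88, 13.37 and 12.97 in p53 tumours. All tumours lay above normal tissue. It rose by 1.02 ± 0.23 (adjusted p = 0.00283) and by 1.24 ± 0.30 (adjusted p = 0.00678), or 0.93 without p53 replicate 2.

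Tyrobp, the adaptor of TREM2 and other myeloid receptors, read 11.33, 10.70, 11.22, 10.79 and 10.82 in normal tissue, 10.75, 11.76 and 12.33 (lowest, median, highest) in Rb/p53 tumours and 12.002, 13.38 and 12.33 in p53 replicates 1 to 3. The p53 tumours were apart from normal tissue and the Rb/p53 tumours were not. Tyrobp missed the threshold in Rb/p53 tumours (0.70 ± 0.26, adjusted p = 0.0534; 0.0252 with p53 replicate 2 out of the fit and 0.0442 with p53 replicate 1 out) and rose by 1.60 ± 0.34 (adjusted p = 0.00278) in p53 tumours, or 1.19 without p53 replicate 2. Trem2, a lipid-sensing receptor of tissue macrophages, read 9.27, 8.77, 9.06, 8.71 and 8.63 in normal tissue, 9.55, 10.20 and 11.11 (lowest, median, highest) in Rb/p53 tumours and 9.60, 11.39 and 10.54 in p53 tumours. No tumour overlapped with normal tissue. Trem2 rose by 1.36 ± 0.26 (adjusted p = 0.000869) and by 1.63 ± 0.34 (adjusted p = 0.00267), or 1.19 without p53 replicate 2.

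The complement chains of C1q, which are encoded side by side and secreted largely by macrophages, did not all pass. C1qa read 11.10, 10.65, 11.21, 10.52 and 10.50 in normal tissue, 10.81, 11.65 and 12.48 (lowest, median, highest) in Rb/p53 tumours and 11.73, 13.15 and 12.38 in p53 replicates 1 to 3. MMTV-Cre replicates 2 and 4 overlapped with normal tissue. C1qa rose by 0.85 ± 0.27 (adjusted p = 0.0243), a call lost without normal replicate 2, 4 or 5 (adjusted p up to 0.0673), and by 1.62 ± 0.35 (adjusted p = 0.00318) in p53 tumours, or 1.26 without p53 replicate 2. C1qc read 11.87, 11.11, 11.61, 12.08 and 12.39 in normal tissue, 11.78, 12.28 and 13.10 (lowest, median, highest) in Rb/p53 tumours and 12.07, 13.75 and 12.98 in p53 tumours. It overlapped with normal tissue in both. C1qc did not pass in Rb/p53 tumours (0.58 ± 0.27, adjusted p = 0.124) and rose by 1.12 ± 0.35 (adjusted p = 0.0341) in p53 tumours, a call lost without normal replicate 1, 2 or 3 or p53 replicate 2 or 3 (0.71, adjusted p = 0.19, without p53 replicate 2). C1qb passed in neither, at 0.38 (adjusted p = 0.195) and 0.76 (adjusted p = 0.0573). Its p53 value was 0.48 (adjusted p = 0.271) without p53 replicate 2 and 1.11 (adjusted p = 0.00904) without replicate 1, and it also passed without MMTV-Cre replicate 4 or 7 or normal replicate 5.

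Of the 8 phagocyte effector genes, 4 rose in each tumour genotype. Ms4a6d, a membrane protein of the MS4A family found in macrophages, had the lowest adjusted p of the 35 in both comparisons. It read 10.06, 9.91, 10.50, 9.997 and 9.59 in normal tissue, 11.62, 12.10 and 12.62 (lowest, median, highest) in Rb/p53 tumours and 12.25, 13.11 and 12.76 in p53 replicates 1 to 3. The lowest tumour stood more than 1 log2 unit above the highest normal sample. Ms4a6d rose by 2.15 ± 0.18 (adjusted p = 8.36e-08) and by 2.70 ± 0.23 (adjusted p = 3.15e-07), or 2.49 without p53 replicate 2.

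Ctss, a lysosomal protease that prepares MHC class II molecules for peptide, read 10.19, 9.76, 10.30, 9.74 and 9.17 in normal tissue, 10.23, 11.50 and 12.30 (lowest, median, highest) in Rb/p53 tumours and 11.39, 13.07 and 12.11 in p53 replicates 1 to 3. MMTV-Cre replicate 4 was the only tumour in the normal range. Ctss rose by 1.58 ± 0.30 (adjusted p = 0.000744) and by 2.36 ± 0.39 (adjusted p = 0.000374), or 1.92 without p53 replicate 2. Mpeg1, a pore-forming protein of phagocytes, read 10.08, 9.72, 10.26, 9.45 and 9.14 in normal tissue, 10.24, 11.12 and 12.11 (lowest, median, highest) in Rb/p53 tumours and 10.77, 12.88 and 11.65 in p53 tumours. Again only MMTV-Cre replicate 4 overlapped. Mpeg1 rose by 1.28 ± 0.33 (adjusted p = 0.00831) and by 2.03 ± 0.44 (adjusted p = 0.00318), or 1.48 without p53 replicate 2.

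Ms4a7, of the same family as Ms4a6d, read 9.24, 8.55, 9.49, 9.44 and 8.98 in normal tissue, 9.97, 10.60 and 11.33 (lowest, median, highest) in Rb/p53 tumours and 10.49, 8.89 and 10.90 in p53 replicates 1 to 3. Only p53 replicate 2 lay among the normal samples. Ms4a7 rose by 1.44 ± 0.29 (adjusted p = 0.00146) in Rb/p53 tumours. It did not pass in p53 tumours (0.96 ± 0.38, adjusted p = 0.0874), and did without p53 replicate 2 (1.56, adjusted p = 0.00333). Aif1, an actin-binding protein of macrophages and microglia, read 8.36, 8.17, 8.75, 8.15 and 7.63 in normal tissue, 7.93, 9.06 and 9.73 (lowest, median, highest) in Rb/p53 tumours and 9.24, 9.26 and 9.70 in p53 tumours. All p53 tumours were above normal tissue, and 3 of 9 Rb/p53 tumours were not. Aif1 did not pass in Rb/p53 tumours (0.69 ± 0.29, adjusted p = 0.0863) and rose by 1.19 ± 0.38 (adjusted p = 0.0337) in p53 tumours, a call lost without normal replicate 2, 4 or 5 or any 1 p53 tumour (adjusted p up to 0.0864).

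The other effectors passed in neither comparison with all arrays. Lyz2, the myeloid lysozyme, differed by 0.10 (adjusted p = 0.654) in Rb/p53 and 0.50 (adjusted p = 0.054) in p53 tumours, with levels of 12.94 to 14.09 over all samples. Cybb, the catalytic chain of the phagocyte oxidase, differed by 0.30 (adjusted p = 0.627) and 1.31 (adjusted p = 0.0629). Laptm5, a lysosomal protein of blood cells, differed by 0.52 (adjusted p = 0.0929) and 0.57 (adjusted p = 0.161). Their groups overlapped throughout. Without p53 replicate 2 the p53 values of Lyz2, Cybb and Laptm5 were 0.30, 0.77 and 0.35, and none passed. Without p53 replicate 1 they were 0.71 (adjusted p = 0.0109), 1.84 (adjusted p = 0.0171) and 1.03 (adjusted p = 0.00766), so all 3 passed. Lyz2 and Cybb also passed in p53 tumours without MMTV-Cre replicate 7, as did Cybb without replicate 4. Laptm5 passed in Rb/p53 tumours without p53 replicate 1 (0.52, adjusted p = 0.0238), a sample that enters that comparison only through the estimate of spread.

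Neither lipid-handling gene rose. Gpnmb, a glycoprotein of lipid-laden macrophages, read 9.67, 8.47, 8.89, 9.09 and 8.99 in normal tissue, 7.44, 8.20 and 10.26 (lowest, median, highest) in Rb/p53 tumours and 7.28, 7.10 and 7.40 in p53 replicates 1 to 3. The p53 tumours lay below every other sample, and the Rb/p53 tumours spread from below the normal range to above it. Gpnmb did not pass in Rb/p53 tumours (-0.41 ± 0.41, adjusted p = 0.541). It fell by 1.76 ± 0.54 (adjusted p = 0.03) in p53 tumours, a call lost without normal replicate 1 or 4 or p53 replicate 1 or 2 (-1.68, adjusted p = 0.0769, without p53 replicate 2). Apoe, the lipoprotein that macrophages and adipocytes make, differed by -0.12 (adjusted p = 0.794) and -0.02 (adjusted p = 0.971), or -0.04 in the latter without p53 replicate 2.

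Of the 3 resident-macrophage receptors, 2 fell in Rb/p53 tumours and none passed in p53 tumours. Timd4, a phosphatidylserine receptor of resident macrophages, read 8.77, 8.17, 8.51, 8.45 and 8.53 in normal tissue and 6.48, 6.69 and 7.26 (lowest, median, highest) in Rb/p53 tumours. It read 6.84, 9.10 and 7.39 in p53 replicates 1 to 3. Every tumour but p53 replicate 2 lay below every normal sample, and p53 replicate 2 lay above them. Timd4 fell by 1.72 ± 0.26 (adjusted p = 9.41e-05) in Rb/p53 tumours, and was -1.34 (adjusted p = 0.109) with only the 2 that are not transplants. The median in Rb/p53 tumours lay close to the lowest 25th percentile of any array, 6.37, which limits the precision of the size of the fall. In p53 tumours the difference was -0.71 ± 0.34 (adjusted p = 0.141), and -1.37 (adjusted p = 0.000172) without p53 replicate 2.

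Lyve1, a hyaluronan receptor of lymphatic endothelium and of a subset of resident macrophages, read 11.26, 11.05, 11.56, 11.98 and 11.97 in normal tissue and 7.76, 9.72 and 11.29 (lowest, median, highest) in Rb/p53 tumours. It read 9.83, 13.29 and 10.996 in p53 replicates 1 to 3. MMTV-Cre replicate 4 alone among Rb/p53 tumours reached the normal range, and p53 replicate 2 exceeded it. Lyve1 fell by 2.02 ± 0.59 (adjusted p = 0.0172) in Rb/p53 tumours and differed by -0.19 ± 0.78 (adjusted p = 0.876) in p53 tumours, or -1.15 (adjusted p = 0.344) without p53 replicate 2. With only the 2 Rb/p53 tumours that are not transplants it was -0.97 (adjusted p = 0.485). Of the 5 measured lymphatic endothelial genes 1 fell in each comparison, where 13.4% and 12.1% of all genes fell. The mean of the 5 was 7.91 to 8.10 in normal tissue and 7.27 to 8.76 in Rb/p53 tumours. Their part in the fall of Lyve1 was not tested. Marco, a scavenger receptor, lay between 6.44 and 7.47 in all samples and passed in neither comparison (-0.08, adjusted p = 0.633, and 0.30, adjusted p = 0.111). Its p53 value was 0.10 (adjusted p = 0.582) without p53 replicate 2 and 0.41 (adjusted p = 0.0385) without replicate 3.

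**Figure D4:**
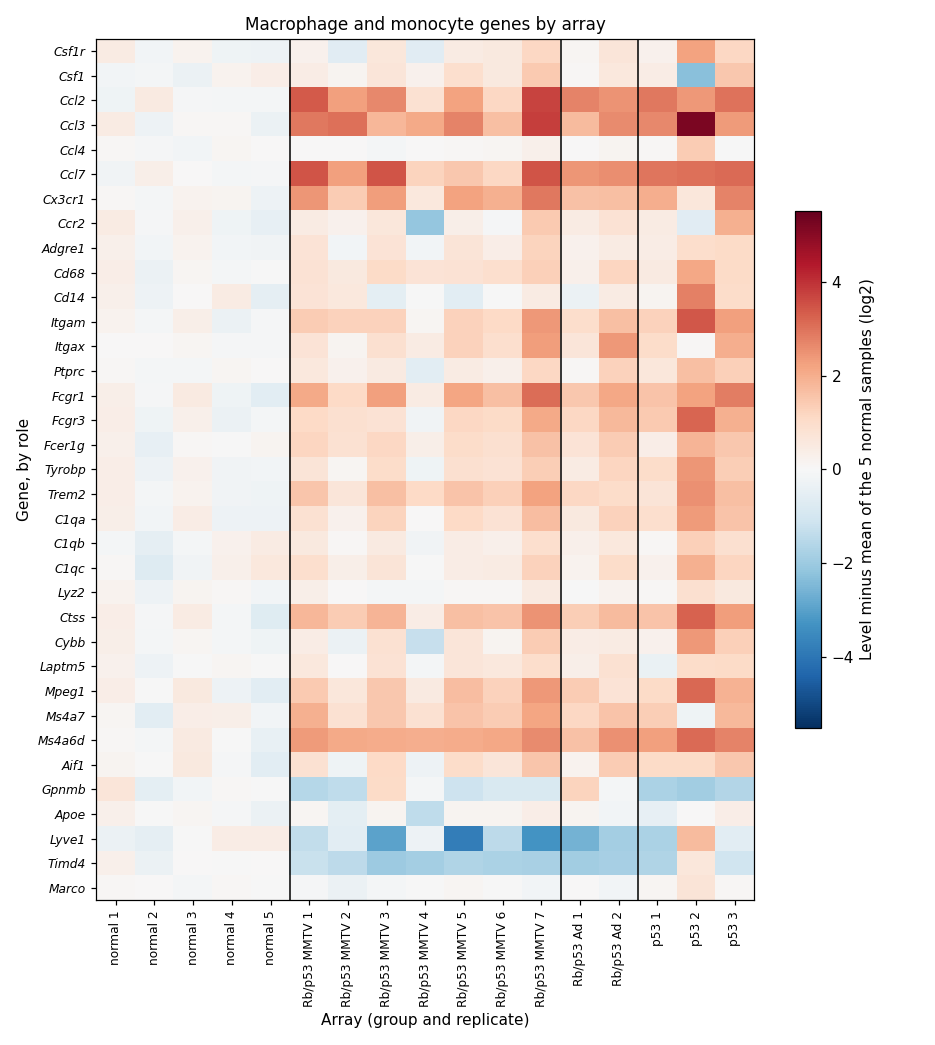
Level of each gene minus its mean in the 5 normal samples (colour, log2; red above, blue below) by array (x axis) and gene in order of role (y axis), with lines between groups. Among Rb/p53 tumours MMTV-Cre replicate 7 is highest in 27 of 35 genes and replicate 4 lowest in 21; p53 replicate 2 is red where most tumours are blue for Lyve1 and Timd4, and blue for Csf1.

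No gene of the 35 passed between the tumour genotypes, where 0.00502% of all genes did (limma, Rb/p53 minus p53, 12 tumours). At an unadjusted p below 0.05, 1 of the 35 was higher and 12 lower in Rb/p53 tumours, against 20.6% of all genes in either direction. The median difference was -0.40. Without p53 replicate 2 the unadjusted count was 0, without p53 replicate 1 it was 20, and without p53 replicate 3 it was 9. The share of all genes was computed only with all 12 tumours. Whether it moved in the same way as these counts was not tested. Cd14 differed by -1.22 (95% interval -2.20 to -0.25; adjusted p = 0.194) with all tumours and by -0.49 without p53 replicate 2. Timd4 differed by -1.004 (95% interval -1.75 to -0.25; adjusted p = 0.178) and by -0.34 without it. Csf1r differed by -0.92 (95% interval -1.81 to -0.02; adjusted p = 0.236) and by -0.42 without it. Ccl2 differed by -0.39 (95% interval -1.49 to 0.70; -0.58 without p53 replicate 2), a span that holds changes of more than 1 log2 unit. Gpnmb was the 1 gene whose groups did not overlap, higher in Rb/p53 tumours by 1.35 (95% interval 0.16 to 2.54; adjusted p = 0.213) and by 1.27 without p53 replicate 2, against 1.67% of all genes without overlap in that direction and 1.47% in the other.

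No difference by Cre delivery or transplantation passed. Between the 2 Ad-Cre and 7 MMTV-Cre Rb/p53 tumours, 0 of 35 genes passed in limma, 0 had an unadjusted p below 0.05, and the median difference was 0.03. Over all genes 0.00502% passed and 2.07% had an unadjusted p below 0.05. All 35 genes overlapped between the groups, where 1.98% of all genes lay higher and 3.05% lower without overlap. The largest of the 35 was Gpnmb at 1.26 (95% interval -0.02 to 2.53), with Ad-Cre tumours at 10.26 and 8.92. For Ccl2 the interval was -1.09 to 1.66, so that differences of more than 1 log2 unit either way were within the error of 2 tumours. Between the 5 transplanted and the 2 other MMTV-Cre tumours, 0 of 35 passed and 2 had an unadjusted p below 0.05, where 0.0251% (0.0201% lower) and 7.92% of all genes did. Timd4 read 7.26 and 7.04 in the 2 others and 6.48 to 6.84 in the transplants (-0.47, unadjusted p = 0.00622, adjusted p = 0.564). Cd14 read 10.73 and 10.56 in the others and 9.38 to 10.40 in the transplants (-0.82, unadjusted p = 0.0207, adjusted p = 0.605). Neither gene overlapped, nor did Gpnmb in the other direction, at 7.44 and 7.61 against 7.88 to 10.09. Over all genes 8.8% lay higher and 5.46% lower without overlap.

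A wider list of myeloid genes was read beside the 35, with 39 of its 47 genes measured. In Rb/p53 tumours 10 of the 39 rose and 6 fell, with a median of 0.30, where 14.2% of all genes rose and 13.4% fell. In p53 tumours 18 rose and 3 fell, with a median of 0.90, where 8.34% of all genes rose and 12.1% fell. Without p53 replicate 2 the latter counts were 12 and 3, with a median of 0.59. The shares of all genes just given are from the fit with all arrays. The largest rises in Rb/p53 tumours were Fcgr4, an Fc receptor of monocytes and neutrophils, at 3.13, Il1b, an inflammatory cytokine, at 2.71 and Ccl12, a CCR2 ligand, at 2.52. The 3 largest in p53 tumours were Msr1, a scavenger receptor, at 3.79, Fcgr4 at 3.76 and Il1b at 3.52. Without p53 replicate 2 they were 3.49, 2.46 and 2.80, and Ccl12 was the largest at 3.56. Normal means of Fcgr4, Ccl12 and Il1b were 6.39, 6.53 and 6.69, close to the lowest 25th percentile of any array, 6.37. Msr1 rose by 2.44 in Rb/p53 tumours as well. The largest fall was that of Ccl24, an eosinophil-attracting chemokine, at -3.07 in Rb/p53 and -2.48 in p53 tumours (-2.81 without p53 replicate 2). Next in Rb/p53 tumours came Cd163, a haemoglobin scavenger receptor of resident macrophages, at -2.23 and Cebpa, a factor of myeloid cells and adipocytes, at -1.83. In p53 tumours Cebpa fell by 1.39 and was -1.95 without p53 replicate 2. Cd163 differed there by -0.67 (adjusted p = 0.416), and by -1.65 (adjusted p = 0.0152) without p53 replicate 2. Mrc1, the mannose receptor, differed by -0.20 (adjusted p = 0.619) in Rb/p53 tumours and rose by 1.23 (adjusted p = 0.0103) in p53 tumours, a call lost without p53 replicate 2 (0.85, adjusted p = 0.0666). Il34, the other ligand of CSF1R, did not pass in either (0.79, adjusted p = 0.0613, and 0.27, adjusted p = 0.648), but did in p53 tumours without replicate 2 (0.99, adjusted p = 0.0176). Spi1 differed by 0.49 (adjusted p = 0.16) in Rb/p53 tumours and rose by 1.10 (adjusted p = 0.0224) in p53 tumours, a call lost without p53 replicate 2 (0.75, adjusted p = 0.127) or 3 (adjusted p = 0.062). Cx3cl1, the ligand of CX3CR1, differed by 0.44 (adjusted p = 0.401) in Rb/p53 tumours and fell by 1.32 (adjusted p = 0.0477) in p53 tumours, a call lost without any 1 of the 3 p53 tumours (-1.16, adjusted p = 0.14, without replicate 2).

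Lists of other cell types were read on the same arrays. Over all genes 14.2% rose and 13.4% fell in Rb/p53 tumours, and 8.34% rose and 12.1% fell in p53 tumours. Those shares are from the fit with all arrays. Counts in lists this short are given beside them as description. Of 7 mast cell genes 6 fell in each tumour genotype. Of 10 measured T and NK cell genes 1 rose and 3 fell in Rb/p53 tumours, and 1 rose in p53 tumours. Of 6 B and plasma cell genes 4 fell in Rb/p53 tumours and 1 in p53 tumours. Among stromal lists, 2 of 7 endothelial and 3 of 7 fibroblast genes fell in Rb/p53 tumours, and 4 and 1 in p53 tumours. All 9 adipocyte genes and 6 of 8 epithelial genes fell in both, with or without p53 replicate 2. Without that tumour the p53 falls were 4 of 7 for mast cells, 0 of 6 for B and plasma cells, 1 of 7 for endothelium and 0 of 7 for fibroblasts. The mean of all 35 macrophage and monocyte genes was 9.74 to 10.12 in normal tissue, 9.99 to 11.33 in Rb/p53 tumours and 10.60 to 11.53 in p53 tumours.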

How the data were processed

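The deposited series matrix holds log2 values of 35556 probe sets on 17 arrays. They were made by RMA, which corrects background, normalises the arrays to each other and summarises probes, in Partek 5.6, per the submitters' processing notes. The build and any further setting: not given in the sources used here. Probe sets with 1 symbol (21789) were kept, those with several (1621) or none (12146) were left out, and of those sharing a symbol the one with the highest mean was used, which left 19938 genes. Itgam also lies on 3 probe sets that name other genes, which were not used.

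Genes were tested with limma 3.58.1 in R 4.3.3 (lmFit and eBayes, two-sided) and p was adjusted by Benjamini-Hochberg over all 19938 genes, at a threshold of 0.05. Errors are standard errors of differences of group means. Tumours were compared with normal tissue on all 17 arrays as 3 groups, the genotypes on the 12 tumour arrays, Cre delivery on those arrays as 3 groups, and transplants on the 7 MMTV-Cre Rb/p53 arrays. Both tumour against normal comparisons share the 5 normal samples, so their values stand side by side and no overlap is counted. The number of arrays limits the precision. Replicate numbers follow the order of the samples and pair nothing.

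The genes and the lists were chosen with earlier results of these data known. Every one of the 35 is named, and where it passed a comparison the level of each normal and p53 sample and the lowest, median and highest Rb/p53 level are given. From the other myeloid genes, 6 chosen by name and up to 3 of the largest rises and falls per comparison are named. Markers of neutrophils, dendritic cells, mast cells, T and NK cells, B and plasma cells, lymphatic and other endothelium, adipocytes, epithelium and fibroblasts were read the same way. Alternatives covered normalisation, the low-level filter, the choice of probe set, moderation, array weights, the groups and leaving out each array. Other lists were also read without each p53 tumour, which was chosen after seeing the data. The scripts were tested on simulated data.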

Additional observations from a re-analysis of the deposited data

Results flagged for a closer look

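Within-group values of the 35 genes were screened for single samples far from the rest, in the 2 groups with enough samples, and 2 of 70 sets of values met Dixon's criterion, which chance meets in about 1 of 20. Ccr2, the receptor of CCL2 and CCL7, read 7.21 in Rb/p53 MMTV-Cre replicate 4. The nearest of the other 6 tumours read 9.27, a gap of 0.575 of the group's range against a critical value of 0.568. That tumour was the lowest of the 9 Rb/p53 tumours in 21 of the 35 genes. Ccl2, a monocyte-attracting chemokine, read 9.27 in normal replicate 2. The nearest of the other 4 normal samples read 8.74, a gap of 0.734 of the range against a critical value of 0.71. All 12 tumours read above that sample.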

How the results depend on the processing

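No member that passed changed direction under any alternative run. In some runs the direction could not change, because the group means stayed the same. These were the runs on moderation, the low-level filter and arrays outside the comparison. Each of the 35 genes had 1 probe set, so the choice of probe set left their levels unchanged. The count of the 35 genes past the threshold against normal tissue moved by more than 1.5 times in 2 instances. It was 8 for Rb/p53 with only the 2 tumours not labelled as transplants. It was 7 for p53 with replicate 2 left out and replicate 3 counted as Rb/p53. That setting was chosen after seeing the data and leaves 1 p53 tumour assumed to vary like the other groups. Leaving out 1 array gave 16 to 22 genes for Rb/p53, 17 to 24 for p53 and 0 to 0 in the 3 comparisons among tumours. The range of r was 0.73 to 0.84 for Csf1 with Csf1r, 0.78 to 0.89 for Ccl2 with Ccr2 and 0.60 to 0.74 for Ccl7 with Ccr2. Over all 12 tumours r of Csf1 with Csf1r turned to -0.32, while rho was 0.46 and r was 0.81 without p53 replicates 2 and 3. For Ccl7 with Ccr2, r over the 12 tumours was 0.60 (adjusted permutation p = 0.0554). The cause was not tested. Among Rb/p53 calls, 7 held under every alternative (Fcgr1, Cx3cr1, Ctss, Ms4a6d, Ccl2, Ccl3 and Ccl7), and among p53 calls 4 did (Ms4a6d, Ccl2, Ccl3 and Ccl7). Cyclic loess lost Cd68, Fcgr3 and C1qa in Rb/p53, and Csf1r and Cd14 in p53. Array weights lost Csf1r, Adgre1, Cd14, C1qc and Gpnmb in p53, and quantile normalisation again lost Cd14 there. With only the MMTV-Cre tumours, Itgax was lost in Rb/p53. Over all genes, 40.83% of the p53 calls were higher, and 52.83% after quantile normalisation again, while for Rb/p53 the share was 51.39% and 42.61% after cyclic loess. No paired analysis was possible because replicate numbers follow accession order and pair no samples.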
